A study of Homo sapiens with 10 samples.

Results

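The melanocyte lineage genes described here are 8 genes taken by name from the series' gene-level files: MITF, PMEL, TYR, TYRP1, DCT, MLANA, KIT and EDNRB. All 8 were found in the files, out of 30357 named genes, and each was read in all 10 libraries. The libraries are bulk RNA-seq of sensory neuron cultures made from the human embryonic stem cell line RUES2, edited to carry a tdTomato fluorescent reporter at AVIL, which encodes advillin, a protein that binds actin. The cultures were taken at day 60 in vitro after 1 of 3 differentiation protocols, each meant to bias the neurons toward 1 sensory subtype, and 3 libraries came from the proprioceptor protocol, 3 from the mechanoreceptor protocol and 4 from the nociceptor protocol. All 3 groups share the line and the reporter, there was no undifferentiated or melanocyte sample among the libraries, and whether cells were sorted for the reporter is not given in the sources used here. The titles call the libraries biological replicates without saying whether they were separate differentiations. The p-values below therefore set differences between protocols only against the spread among these libraries, and some of that spread may be technical.

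Melanocytes, like sensory neurons and the Schwann cells and satellite glia of the peripheral nervous system, derive from the neural crest. In the melanocyte branch, SOX10 and PAX3 switch on MITF, the basic helix-loop-helix factor that is regarded as the master regulator of the lineage, and MITF in turn activates the genes of pigment synthesis through short E-box motifs in their promoters. KIT and EDNRB are the cell-surface receptors through which melanocyte precursors receive stem cell factor and endothelin, and EDNRB is also used by neural crest cells of the gut and by glia.

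Across the 10 libraries the 8 genes lay far apart in level, with the order of the means given by EDNRB, PMEL, MITF, KIT, MLANA, TYRP1, DCT and TYR. Levels are given in TPM, a share of all transcripts in a library that is adjusted for transcript length and for the library total. Over all 10 libraries EDNRB averaged 29.8 ± 43.0 TPM, PMEL 8.32 ± 8.37 TPM, MITF 1.54 ± 0.899 TPM and KIT 0.801 ± 0.511 TPM (SD, n = 10 each). MLANA averaged 0.365 ± 0.230 TPM, TYRP1 0.250 ± 0.267 TPM, DCT 0.241 ± 0.140 TPM and TYR 0.0335 ± 0.0414 TPM (SD, n = 10 each). Several neighbours in this order did not differ beyond their spread: EDNRB was above PMEL in 5 of 10 libraries, MLANA above TYRP1 in 5 and TYRP1 above DCT in 5. PMEL was above MITF in 9 of 10 libraries, MITF above KIT in 8, KIT above MLANA in 8 and DCT above TYR in 10.

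**Figure D1:**
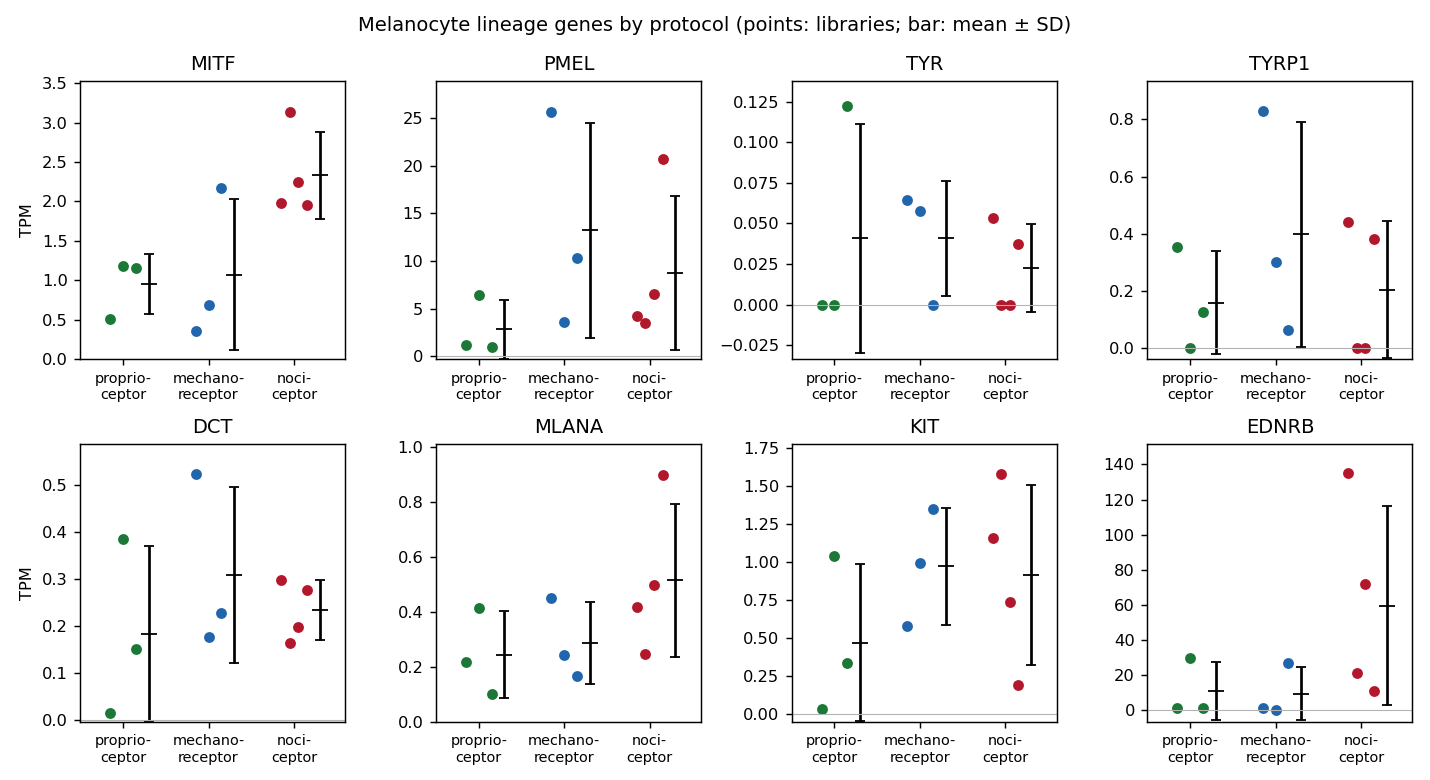
Level of each of the 8 genes in TPM (y axis, linear, a separate scale per gene) in the proprioceptor, mechanoreceptor and nociceptor protocols (x axis); each point is 1 library and each bar the mean ± SD (n = 3, 3 and 4). TYR, TYRP1, DCT and MLANA stay under 1 TPM in every library, and EDNRB spans 0.0533 to 135 TPM.

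The genes that carry out pigment synthesis were close to the detection limit. TYR, TYRP1, DCT and MLANA together held 283 estimated counts over the 10 libraries, or 0.822 CPM, a count scaled to the total of the named genes, and between 10 and 61 counts in a single library. None of these 4 genes reached 1 TPM in any library. The libraries held 27891186 to 44541262 counts in named genes, so that a gene with 0 counts could still have been present at up to 3 counts, or 0.0674 to 0.108 CPM, on counting error alone.

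MITF is known to bind the motif CATGTG, the M-box core when preceded by T, and the promoters of TYR, TYRP1 and DCT are its classical targets. Their RefSeq windows (GRCh38.p14) are printed because they show the sequence through which MITF is known to act on genes that stayed under 1 TPM here. Each window holds 250 bases before and 50 after the annotated start, 5′ to 3′ on the gene's own strand, with capitals marking CATGTG or its other-strand form CACATG. TYR lies at chr11:89177875-89295759 on the plus strand (window chr11:89177625-89177924), TYRP1 at chr9:12693385-12710285 on the plus strand (window chr9:12693135-12693434), and DCT at chr13:94436811-94549406 on the minus strand, with the window shown at its downstream start (chr13:94479633-94479932).
TYR: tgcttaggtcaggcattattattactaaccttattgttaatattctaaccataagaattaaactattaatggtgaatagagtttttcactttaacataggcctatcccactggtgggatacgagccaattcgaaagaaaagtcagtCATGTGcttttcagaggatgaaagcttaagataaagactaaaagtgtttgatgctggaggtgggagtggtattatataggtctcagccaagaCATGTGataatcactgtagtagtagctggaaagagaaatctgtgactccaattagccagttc
TYRP1: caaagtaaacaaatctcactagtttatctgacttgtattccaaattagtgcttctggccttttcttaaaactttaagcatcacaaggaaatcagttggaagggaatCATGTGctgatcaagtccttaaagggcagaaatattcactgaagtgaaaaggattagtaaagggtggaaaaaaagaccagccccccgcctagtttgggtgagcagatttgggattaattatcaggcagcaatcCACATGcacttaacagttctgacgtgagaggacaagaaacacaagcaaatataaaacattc
DCT: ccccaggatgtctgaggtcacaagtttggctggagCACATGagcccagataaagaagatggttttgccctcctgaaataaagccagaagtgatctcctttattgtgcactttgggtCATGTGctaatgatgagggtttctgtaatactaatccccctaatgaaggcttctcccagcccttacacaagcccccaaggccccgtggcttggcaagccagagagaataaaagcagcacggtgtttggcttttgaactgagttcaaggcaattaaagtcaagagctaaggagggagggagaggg

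The search of both strands found CATGTG at 104 and 12 bases before the TYR start, at 144 and 11 bases before the TYRP1 start, and at 215 and 134 bases before this DCT start. The longer form TCATGTG, which overlaps CATGTG, stood in all 3 windows, once in TYR and in TYRP1 and at both places in DCT. CATGTG was present in 11.1% and TCATGTG in 2.92% of 35116 promoter windows of the same length, so both also occur widely outside pigment genes. The windows of MLANA and KIT held neither form. In the same windows CACGTG, the E-box form that MITF shares with other factors, was found at none of the 7 genes with a window, against 7.26% of all windows, and AACAAT, a core motif of SOX factors, was found only in TYR, 218 bases before the start, against 10.1% of all windows.

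TYR encodes tyrosinase, the rate-limiting enzyme of melanin synthesis. It was listed at 0, 0 and 0.122 TPM in the proprioceptor libraries, at 0.0643, 0.0577 and 0 TPM in the mechanoreceptor libraries, and at 0.0534, 0, 0 and 0.0373 TPM in the nociceptor libraries. Its highest estimated count was 4, in proprioceptor library 3, and 5 of 10 libraries had none, so the protocols overlapped. All 11 counts were assigned to TYR-202, an annotated processed transcript that lacks a coding sequence, and the 1 protein-coding transcript in the annotation, TYR-201, received none.

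TYRP1 encodes tyrosinase-related protein 1, which works after tyrosinase in the making of eumelanin. It stood at 0.354, 0 and 0.127 TPM in the proprioceptor libraries, at 0.831, 0.301 and 0.0646 TPM in the mechanoreceptor libraries, and at 0.440, 0, 0 and 0.383 TPM in the nociceptor libraries. Mechanoreceptor library 1 was the highest, with 14 counts, and every protocol also had a library at or under 0.0646 TPM, so the groups overlapped. TYRP1-202, a processed transcript without a coding sequence, took 83.8% of the gene's TPM. The antisense gene LURAP1L-AS1 overlaps TYRP1, and a library that does not keep the strand cannot assign reads from the shared bases to 1 of the genes.

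DCT encodes dopachrome tautomerase, which acts between tyrosinase and TYRP1 and is an early marker of melanoblasts, the migrating precursors. It stood at 0.0150, 0.385 and 0.150 TPM in the proprioceptor libraries, at 0.523, 0.176 and 0.228 TPM in the mechanoreceptor libraries, and at 0.297, 0.163, 0.198 and 0.277 TPM in the nociceptor libraries. Its counts were between 2 and 42 per library, and the groups overlapped. Of its TPM, 38.8% lay in DCT-204, a transcript annotated as a target of nonsense-mediated decay, 37.3% in the protein-coding DCT-201, 11.8% in the protein-coding DCT-202, 6.41% in DCT-203 and 5.71% in DCT-205. By counts the order differed, with 110 of 170 in DCT-201 and 32 in DCT-204.

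MLANA encodes melan-A, a small membrane protein of the melanosome that takes part in the processing of PMEL. It stood at 0.218, 0.415 and 0.0999 TPM in the proprioceptor libraries, at 0.452, 0.243 and 0.165 TPM in the mechanoreceptor libraries, and at 0.417, 0.246, 0.496 and 0.900 TPM in the nociceptor libraries. Nociceptor library 4 was the highest, with 10 counts, and the groups overlapped. MLANA, at chr9:5890889-5910606 on the plus strand, overlaps the gene BRD10, which itself stood at 4.55 to 15.9 TPM. The noncoding transcripts MLANA-204 and MLANA-205 took 52.0% and 31.0% of the gene's TPM, and the protein-coding MLANA-203 took 16.6%. By counts the order differed, with 33 of 55 in MLANA-203, against 12 in MLANA-204 and 10 in MLANA-205.

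PMEL, whose amyloid fibrils form the scaffold of the melanosome, differed from the other pigment genes by being measurable nearly everywhere. The gene, at chr12:55954105-55966709 on the minus strand, reached 1 TPM in 9 of 10 libraries and had 3565 counts in all. It stood at 1.14, 6.44 and 0.986 TPM in the proprioceptor libraries, at 25.7, 3.62 and 10.3 TPM in the mechanoreceptor libraries, and at 4.28, 3.50, 6.55 and 20.7 TPM in the nociceptor libraries. Mechanoreceptor library 1 and nociceptor library 4 were the highest and proprioceptor libraries 1 and 3 the lowest, with overlap between all pairs of protocols. The means were 2.86 ± 3.11 TPM in the proprioceptor, 13.2 ± 11.3 TPM in the mechanoreceptor and 8.75 ± 8.04 TPM in the nociceptor protocol (SD, n = 3, 3 and 4).

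The counts of PMEL lay mainly in the protein-coding transcript PMEL-206, which begins at base 55966674 on the minus strand of chromosome 12 and held 82.7% of the gene's TPM. By library, PMEL-206 took between 41.1% and 95.3% of the gene's counts, with a median of 89.6%. In the proprioceptor protocol against the mechanoreceptor protocol the log2 fold change of PMEL was -2.06 ± 0.89 (SE), and its unadjusted p of 0.0410 in edgeR's quasi-likelihood test did not survive the adjustment over all genes (adjusted p = 1). At that unadjusted threshold 241 of 16130 genes, or 1.49%, passed in this comparison, and PMEL was the 1 that did among 5 tested lineage genes. The fold change was -3.06 without proprioceptor library 2 and -1.15 without mechanoreceptor library 1.

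MITF was low in all libraries and lowest on average in the proprioceptor protocol. It stood at 0.507, 1.18 and 1.16 TPM in the proprioceptor libraries, at 0.358, 0.691 and 2.17 TPM in the mechanoreceptor libraries, and at 1.98, 3.14, 2.25 and 1.95 TPM in the nociceptor libraries. In TPM the 3 proprioceptor libraries all lay below the 4 nociceptor libraries without overlap, while mechanoreceptor library 3 lay within the nociceptor range. By estimated counts the proprioceptor and nociceptor libraries overlapped. Proprioceptor library 2 had 28 MITF counts of 31836242 in named genes, and nociceptor library 4 had 21 of 27891888. On TPM, MITF was 1 of 5 tested lineage genes without overlap between the proprioceptor and nociceptor libraries. Of 16130 genes, 2.94% did not overlap on this scale in either direction and 1.45% were lower without overlap. In the other comparisons 0 of 5 lineage genes were free of overlap, where 9.88% of genes were in the mechanoreceptor against nociceptor and 5.89% in the proprioceptor against mechanoreceptor comparison. The means were 0.947 ± 0.382 TPM in the proprioceptor, 1.07 ± 0.963 TPM in the mechanoreceptor and 2.33 ± 0.554 TPM in the nociceptor protocol (SD, n = 3, 3 and 4).

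MITF has several promoters, each joined to its own first exon, and the most 3′ of them, the M promoter, is the one used by melanocytes. The M window, at chr3:69936342-69936641 on the plus strand within the gene at chr3:69739464-69968332, is printed because the files can tell transcripts from this start apart from the longer ones; capitals mark TGACGTCA, the cyclic AMP response element.
MITF, M promoter: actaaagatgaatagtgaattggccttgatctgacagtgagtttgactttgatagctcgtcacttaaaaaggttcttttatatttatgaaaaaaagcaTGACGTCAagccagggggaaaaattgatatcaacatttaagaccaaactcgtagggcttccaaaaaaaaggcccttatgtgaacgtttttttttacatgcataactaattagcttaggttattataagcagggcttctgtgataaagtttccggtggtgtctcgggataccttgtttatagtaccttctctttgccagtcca
The element stood 152 bases before the M start and was present in 1.85% of all windows. Neither of the 2 upstream MITF windows in the table held it.

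Most MITF signal came from elsewhere than the M promoter. The processed transcript MITF-213 begins at base 69739474 near the first annotated start and lacks a coding sequence. It took 54.9% of the MITF TPM summed over the libraries, and the protein-coding MITF-214 took 14.2%. By counts the order was the reverse, with 84 of 373 in MITF-213 and 93 in MITF-214. Of the MITF-214 counts, 56 were in mechanoreceptor library 3. Protein-coding transcripts together held 209 of the 296 MITF counts matched to the annotation. Transcripts whose first exon overlaps the M exon, 5 in number and among them MITF-217 with 6.50%, held 58 of 373 counts. Rounded to whole numbers, they had 0, 18 and 2 counts in the proprioceptor libraries, 0, 4 and 0 counts in the mechanoreceptor libraries, and 12, 9, 7 and 6 counts in the nociceptor libraries. All 4 nociceptor libraries had M-start counts, as did 2 of 3 proprioceptor libraries and 1 of 3 mechanoreceptor libraries. The matched annotation covered 79.4% of MITF counts. The starts of the rest are not known, so some M-start counts may be missing here.

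As a share of MITF TPM, the M-start transcripts took 0%, 46.4% and 7.48% among the proprioceptor libraries, 3.12%, 4.70% and 0% among the mechanoreceptor libraries, and 6.32%, 11.9%, 15.7% and 9.03% in the nociceptor libraries. The means were 18.0 ± 24.9% in the proprioceptor, 2.61 ± 2.39% in the mechanoreceptor and 10.8 ± 4.04% in the nociceptor protocol (SD, n = 3, 3 and 4). Every mechanoreceptor share of TPM lay below every nociceptor share, with a difference of -8.15 percentage points (two-sided exact permutation test, p = 0.0571, adjusted over 3 comparisons 0.171). The proprioceptor protocol differed from the nociceptor protocol by 7.21 points (exact p = 0.8, adjusted 0.8) and from the mechanoreceptor protocol by 15.4 points (exact p = 0.5, adjusted 0.75), and proprioceptor library 2 alone set the sign of the first of these, which was -7.02 points without it. As a share of MITF counts, the M-start transcripts took 0%, 64.3% and 15.4% among the proprioceptor libraries, 0%, 36.4% and 0% among the mechanoreceptor ones, and 21.8%, 7.69%, 16.3% and 28.6% among the nociceptor ones. On this scale the mechanoreceptor and nociceptor libraries overlapped, with mechanoreceptor library 2 above all 4 nociceptor libraries. The smallest p these designs allow is 0.0286 with 3 against 4 libraries and 0.1 with 3 against 3. The shares rest on at most 18 counts in a library and are the counts that kallisto divided among overlapping transcripts, which adds an error not measured here.

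KIT, the receptor tyrosine kinase for stem cell factor, at chr4:54657957-54740715 on the plus strand, was also low. It stood at 0.0361, 1.04 and 0.339 TPM in the proprioceptor libraries, at 0.581, 0.995 and 1.35 TPM in the mechanoreceptor libraries, and at 1.16, 1.58, 0.739 and 0.192 TPM in the nociceptor libraries. Each protocol held at least 1 library above 1 TPM, and the groups overlapped. KIT also marks mast cells, and all 8 mast cell markers examined, among them TPSB2, CPA3, CMA1, GATA2 and FCER1A, were under 1 TPM in every library, though none was at 0 in all of them. Their summed level was 0.672 to 1.68 TPM in the proprioceptor, 0.556 to 1.30 TPM in the mechanoreceptor and 0.619 to 2.12 TPM in the nociceptor libraries. The matched annotation covered only 11.5% of KIT TPM, so its isoforms are not described.

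EDNRB, the type B endothelin receptor, was the most abundant of the 8 genes on average and spanned the widest range of TPM. It stood at 1.08, 29.6 and 0.969 TPM in the proprioceptor libraries, at 1.11, 0.0533 and 27.0 TPM in the mechanoreceptor libraries, and at 135, 21.0, 71.8 and 10.6 TPM in the nociceptor libraries. All 4 nociceptor libraries were above 10 TPM, but proprioceptor library 2 and mechanoreceptor library 3 lay within their range, so the protocols overlapped. The highest library was 2534-fold above the lowest. The share of genes with a higher TPM than EDNRB was 4.54% in nociceptor library 1 and 60.1% in mechanoreceptor library 2. The means were 10.6 ± 16.5 TPM in the proprioceptor, 9.37 ± 15.2 TPM in the mechanoreceptor and 59.6 ± 56.9 TPM in the nociceptor protocol (SD, n = 3, 3 and 4).

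The level of EDNRB moved with SOX10 and S100B, from the list of 14 glial markers, between libraries of the same protocol. SOX10, a transcription factor of neural crest, glia and melanocytes, stood at 1.33, 24.6 and 0.898 TPM in the proprioceptor libraries, at 0.732, 0.0136 and 17.7 TPM in the mechanoreceptor libraries, and at 34.2, 35.9, 48.2 and 7.91 TPM in the nociceptor libraries. In both the proprioceptor and the mechanoreceptor protocol the library with the highest EDNRB was also the one with the highest SOX10, and nociceptor library 4 was the lowest of its group for both. S100B, a glial calcium-binding protein, stood at 85.7, 1214 and 34.6 TPM in the proprioceptor libraries, at 10.8, 3.12 and 958 TPM in the mechanoreceptor libraries, and at 1638, 1098, 2295 and 238 TPM in the nociceptor libraries. Not every marker of the glial list did so. Among the mechanoreceptor libraries NGFR was highest in library 2, at 550 TPM. GFAP was highest among the proprioceptor libraries in library 1, at 1.18 TPM. MBP stood at 7.08 to 13.6 TPM over all libraries.

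COL1A1 and STMN2, markers of other cell types, also set these libraries apart. COL1A1, the main collagen of fibroblasts and mesenchyme, stood at 1.77, 536 and 7.81 TPM in the proprioceptor libraries, at 3.26, 2.88 and 366 TPM in the mechanoreceptor libraries, and at 392, 506, 1984 and 17.0 TPM in the nociceptor libraries. STMN2, a microtubule regulator of axons, stood at 6269, 2989 and 5162 TPM in the proprioceptor libraries, at 3559, 4587 and 3089 TPM in the mechanoreceptor libraries, and at 2322, 2031, 1607 and 4236 TPM in the nociceptor libraries. COL1A1 was highest, and STMN2 lowest, in proprioceptor library 2 and mechanoreceptor library 3 of their protocols. Not every marker of their lists did so. The neuronal marker SNAP25 was highest in these same libraries, at 430 and 449 TPM. The mesenchyme marker DCN was highest in proprioceptor library 3 and mechanoreceptor library 1 of their protocols, at 5.56 and 2.92 TPM. In bulk RNA fewer cells of a type and less RNA per cell cannot be told apart, and the part of cell composition in the EDNRB differences was not tested. The ratio of EDNRB to SOX10 TPM was 0.810, 1.21 and 1.08 among the proprioceptor libraries, 1.51, 3.92 and 1.53 among the mechanoreceptor libraries, and 3.95, 0.584, 1.49 and 1.33 in the nociceptor libraries. The ratio of 3.92, in mechanoreceptor library 2, rests on 1 SOX10 count, while in nociceptor library 1 EDNRB was 6.44-fold above nociceptor library 2 with SOX10 at 0.951 of its level.

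**Figure D2:**
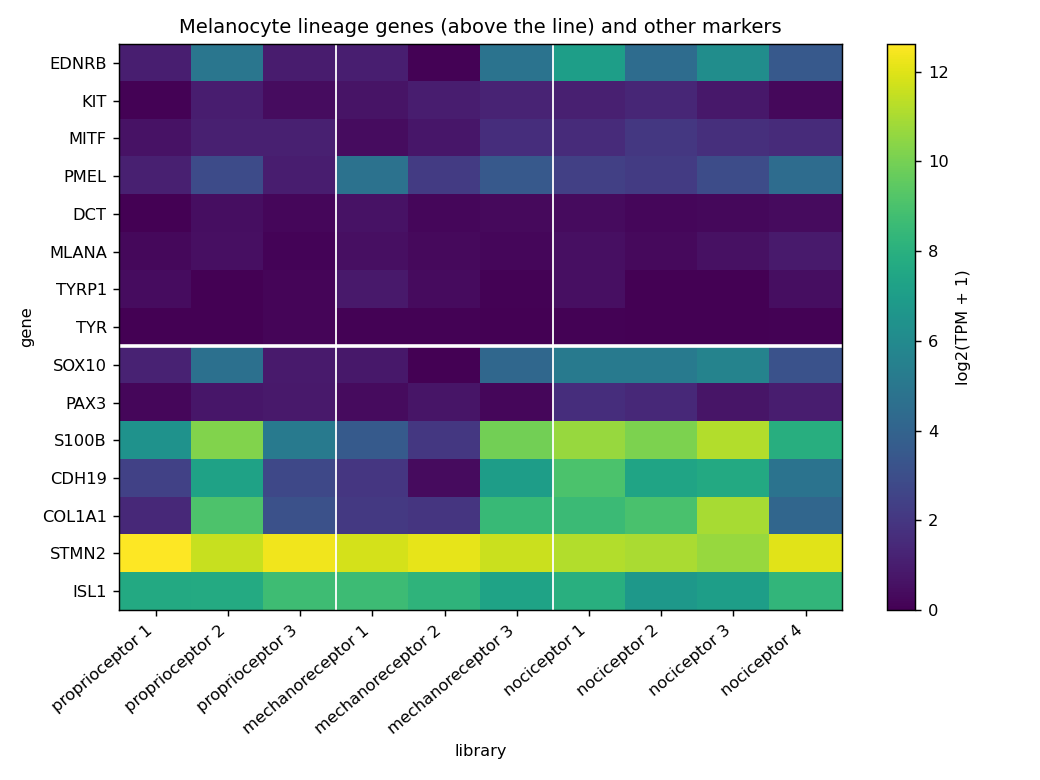
Level as log2(TPM + 1) (colour) of the 8 lineage genes above the white horizontal line and of 7 marker genes below it (y axis) in the 10 libraries (x axis; vertical lines separate the protocols). EDNRB, SOX10, S100B, CDH19 and COL1A1 are all high in proprioceptor 2, mechanoreceptor 3 and nociceptor 1 to 3, and PMEL is highest in mechanoreceptor 1 and nociceptor 4.

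EDNRB lies at chr13:77895487-77975527 on the minus strand and overlaps the antisense gene EDNRB-AS1. The 2 RefSeq windows of its main start region, chr13:77919633-77919932 and chr13:77918782-77919081, are printed because most EDNRB counts came from transcripts that begin there; capitals again mark CATGTG or CACATG.
EDNRB, first window: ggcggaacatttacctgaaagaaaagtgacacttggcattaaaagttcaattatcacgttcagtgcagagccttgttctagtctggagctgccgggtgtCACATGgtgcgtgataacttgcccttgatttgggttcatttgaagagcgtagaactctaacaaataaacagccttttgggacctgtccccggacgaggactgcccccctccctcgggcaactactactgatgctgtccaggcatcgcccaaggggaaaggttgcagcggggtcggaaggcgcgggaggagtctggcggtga
EDNRB, second window: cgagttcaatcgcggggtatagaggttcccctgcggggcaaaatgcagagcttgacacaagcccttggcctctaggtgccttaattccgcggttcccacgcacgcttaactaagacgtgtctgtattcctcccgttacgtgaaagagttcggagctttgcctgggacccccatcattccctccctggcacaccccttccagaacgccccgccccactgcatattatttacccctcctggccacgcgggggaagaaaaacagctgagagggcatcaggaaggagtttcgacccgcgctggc
The first window held the motif once, 151 bases before its start, and the second held none of the motifs searched. The second window surrounds the start of EDNRB-208, at base 77918830, the transcript with 43.1% of the gene's TPM and 66.8% of its counts. EDNRB-206, with an internal start at base 77903568, took 25.3% of TPM, EDNRB-204 15.8%, EDNRB-202 9.82% and EDNRB-203 5.31%. By counts the order differed, with 3146 of 20698 in EDNRB-202, 1477 in EDNRB-204, 1050 in EDNRB-206 and 985 in EDNRB-203. Of the EDNRB-206 counts, 773 were in nociceptor library 1.

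An upstream start was seen in 1 protocol only among these libraries. EDNRB-209 begins at base 77975529, which is 56699 bases upstream of EDNRB-208, and it had 0, 0 and 0 estimated counts in the proprioceptor libraries, 52, 6 and 33 counts in the mechanoreceptor libraries, and 0, 0, 0 and 0 counts in the nociceptor libraries. The 3 mechanoreceptor libraries were therefore the only ones with estimated counts in EDNRB-209, at low counts. Whether reads of the overlapping antisense gene EDNRB-AS1 add to these counts was not tested. In mechanoreceptor library 1 the upstream transcript held 54.7% of 95 EDNRB counts (95% exact interval 44.2% to 65.0%), in library 2 all 6 counts (54.1% to 100%), and in library 3 1.77% of 1860 counts (1.22% to 2.48%).

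The 0 counts elsewhere allow a share of up to 0.0286% in nociceptor library 1, which had 10490 EDNRB counts. The limit was 6.12% in proprioceptor library 1, which had 49 counts, and 4.35% in proprioceptor library 3, which had 69. Both limits lie above the 1.77% of mechanoreceptor library 3, so as a share these libraries cannot be told apart from it. Intervals and limits cover counting error only. This transcript was singled out after its values were seen. It did not pass the filter on low counts in a fit across transcripts added for it, so no test is given. That fit called 0 of 76818 transcripts in any comparison after adjustment, with edgeR. At an unadjusted p under 0.05 it had 3768 in the mechanoreceptor against nociceptor comparison, 3132 in the proprioceptor against nociceptor comparison and 1850 in the proprioceptor against mechanoreceptor comparison.

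**Figure D3:**
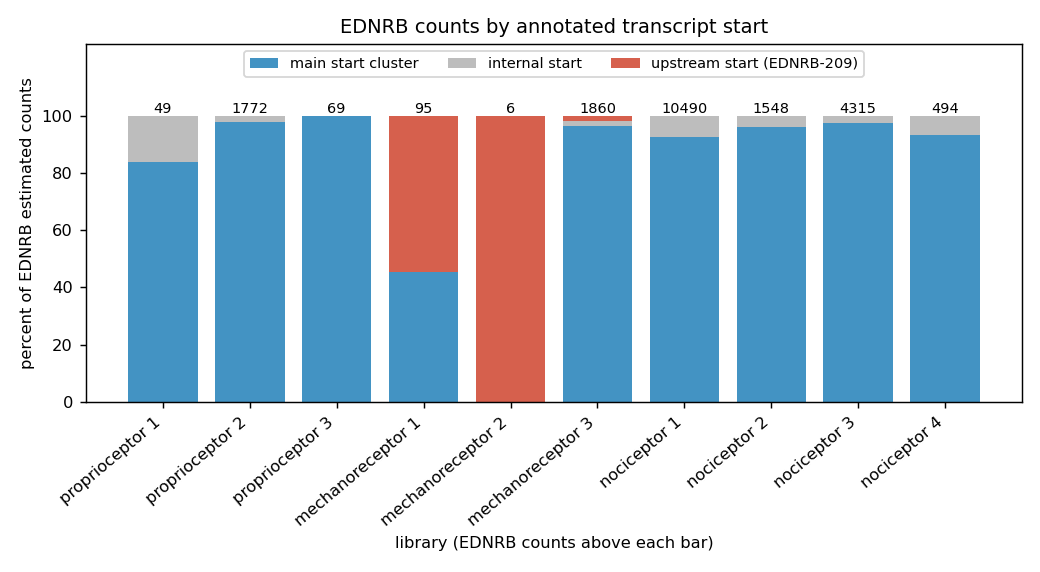
Percent of EDNRB estimated counts (y axis) by annotated start of the transcript (colours) in each of the 10 libraries (x axis), with the number of EDNRB counts above each bar. The upstream start appears in the 3 mechanoreceptor libraries with 52, 6 and 33 counts and is at 0 in the other 7.

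Between protocols, no lineage gene passed the test. Of the 8 genes, 5 passed the filter on low counts and were tested (MITF, PMEL, DCT, KIT and EDNRB), and TYR, TYRP1 and MLANA, with at most 14 counts in a library, did not. With edgeR's quasi-likelihood test fitted on all 10 libraries, 0 of 5 lineage genes had an adjusted p under 0.05 in any comparison, against a background of 0% of 16130 genes in each. The smallest adjusted p of any gene was 0.598 for the mechanoreceptor against the nociceptor protocol, 0.665 for the proprioceptor against the nociceptor protocol and 1.00 for the proprioceptor against the mechanoreceptor protocol. At an unadjusted p under 0.05, 1320 genes (8.18%), 998 genes (6.19%) and 241 genes (1.49%) passed in those comparisons, with 0, 0 and 1 lineage genes among them. DESeq2 called 130 of 15128 genes (0.859%), 31 of 16067 (0.193%) and 0 of 16067 (0%) after adjustment, with 0 lineage genes in each. Across all 3 protocols at once, edgeR's F test called 0 genes (0%), with 925 (5.73%) at an unadjusted p under 0.05 and 0 lineage genes among them, and DESeq2 called 79 of 16067 (0.492%), again with 0 lineage genes.

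In the proprioceptor protocol against the nociceptor protocol all 5 fold changes were below 0, where 47.8% of all genes were, and their median was -1.50 against 0.03 for all genes. The log2 fold changes were -1.50 ± 0.85 for MITF and -1.60 ± 0.84 for PMEL (SE, edgeR adjusted p = 0.665 for both). For EDNRB the log2 fold change was -2.61 ± 1.72 (SE, edgeR adjusted p = 0.669). KIT had -1.03 ± 1.11 and DCT -0.20 ± 0.69 (SE, edgeR adjusted p = 0.761 and 0.936). Without proprioceptor library 2 the values were -5.85 for EDNRB, -3.28 for KIT and -2.65 for PMEL, and without nociceptor library 4 that of PMEL was -0.84.

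In the mechanoreceptor protocol against the nociceptor protocol 3 of 5 were below 0, where 49.9% of all genes were, with a median of -0.73 against 0.00 for all genes. EDNRB had a log2 fold change of -2.53 ± 1.71 and MITF of -1.11 ± 0.83 (SE, edgeR adjusted p = 0.657 and 0.687). KIT had -0.73 ± 1.10, PMEL 0.46 ± 0.79 and DCT 0.62 ± 0.67 (SE, edgeR adjusted p = 0.856, 0.877 and 0.782). The EDNRB value moved to -6.52 without mechanoreceptor library 3 and that of MITF to -2.85 without the same library, so 1 library set much of both. The 2 comparisons above share the 4 nociceptor libraries.

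In the proprioceptor protocol against the mechanoreceptor protocol all 5 fold changes were below 0, where 46.3% of all genes were. Their median was -0.39 against 0.04 for all genes. This comparison and that of the proprioceptor against the nociceptor protocol share the proprioceptor libraries, so their signs are not independent. Next to PMEL, given above, the log2 fold change was -0.83 ± 0.73 for DCT, -0.39 ± 0.88 for MITF, -0.29 ± 1.16 for KIT and -0.07 ± 1.68 for EDNRB (SE, edgeR adjusted p = 1 for each). The value for EDNRB was -3.25 without proprioceptor library 2 and 3.89 without mechanoreceptor library 3, which are the libraries of those protocols with the highest SOX10 and S100B. KIT was at -2.50 without proprioceptor library 2 and 0.52 without mechanoreceptor library 3, and MITF at 1.32 without mechanoreceptor library 3.

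**Figure D4:**
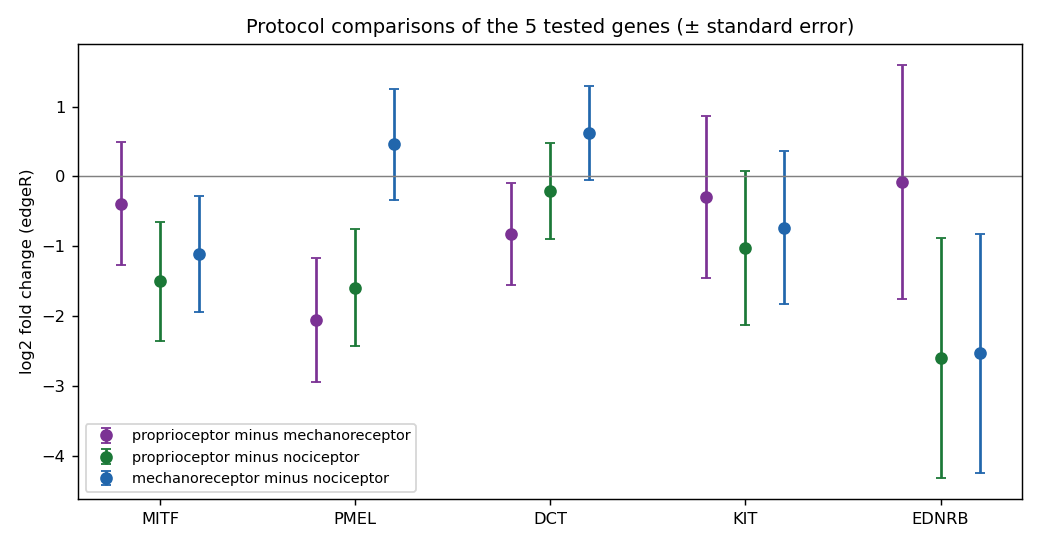
Log2 fold change from edgeR (y axis; bars, standard error) of the 5 tested lineage genes (x axis) in the 3 comparisons of protocols (colours; n = 3 proprioceptor, 3 mechanoreceptor and 4 nociceptor libraries). All 5 points of both proprioceptor comparisons, which share the proprioceptor libraries, lie below 0, and no gene passed an adjusted p of 0.05.

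The genes whose pattern over the 10 libraries was most like each tested lineage gene are given as a description, with Pearson's r of log2 CPM. No p is given, since they were picked for their high r among all tested genes. The part of cell composition in these patterns was not tested. For EDNRB these included TGFBR2 (r = 0.988), ASPA (0.987), CDH19 (0.983) and ITGA1 (0.982), of which CDH19 was on the glial list. For MITF they were SLC47A1 (0.982), ANGPTL4 (0.967), SPOCD1 (0.962), TAGLN (0.960) and CCN2 (0.956). For KIT they were GDF6 (0.962), ALPK2 (0.955), LRRN3 (0.953), ACO1 (0.938) and TCIRG1 (0.938). PMEL was most like EPOR (0.869), PRKCA (0.859) and ACVR1 (0.856), followed by PCSK1 (0.836) and EXPH5 (0.832), and DCT was most like ZNF507 (0.951), COG3 (0.889), TTF2 (0.880), NFX1 (0.878) and TFCP2 (0.876). With SOX10 itself r was 0.960 for EDNRB, 0.858 for MITF, 0.545 for KIT, 0.123 for PMEL and -0.155 for DCT. PMEL and MITF had r = 0.02 with each other.

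The regulators that act above MITF include SOX10 and PAX3, which switch it on in cells of the neural crest. SOX9, at 0.00976 to 0.656 TPM, and IRF4, at 0.0351 to 0.215 TPM, were under 1 TPM in every library. Of 12 melanoblast regulators, 11 were tested, 0 passed the adjusted test, and their median log2 fold change was -1.74 in the proprioceptor protocol and -2.15 in the mechanoreceptor protocol, each against the nociceptor protocol, with 11 and 10 of 11 below 0, where 47.8% and 49.9% of all genes were. PAX3 stood at 0.183, 0.698 and 0.810 TPM in the proprioceptor libraries, at 0.288, 0.622 and 0.169 TPM in the mechanoreceptor libraries, and at 2.17, 1.76, 0.666 and 1.04 TPM in the nociceptor libraries. Its log2 fold change was -1.61 ± 0.64 in the proprioceptor and -2.29 ± 0.66 in the mechanoreceptor protocol against the nociceptor protocol (SE, edgeR adjusted p = 0.665 and 0.598). SOX10 had -1.76 ± 1.63 and -2.28 ± 1.67 in the same comparisons (SE, edgeR adjusted p = 0.720 and 0.681). The medians of the glial list, which shares SOX10 with the regulators, were -1.57 and -1.70. At an unadjusted p under 0.05, edgeR had 2 of 11 regulators in the proprioceptor and 3 in the mechanoreceptor protocol against the nociceptor protocol, where 6.19% and 8.18% of all genes were. DESeq2 called 0 and 2 of them after adjustment, where it called 0.193% and 0.859% of all genes, the 2 being PAX3 (log2 fold change -2.36, DESeq2 adjusted p = 0.0463) and SOX5 (-2.03, DESeq2 adjusted p = 0.0322), both lower in the mechanoreceptor protocol.

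None of the other regulators passed the adjusted test in edgeR. SNAI2, a repressor of epithelial genes in neural crest, had log2 fold changes of -2.20 ± 1.19 and -2.73 ± 1.23, and SOX5, which modulates SOX10 activity, -0.30 ± 0.53 and -1.98 ± 0.56, in the proprioceptor and mechanoreceptor protocols against the nociceptor protocol (SE, edgeR adjusted p between 0.598 and 0.865). ZEB2 had -2.10 ± 1.43 and -2.47 ± 1.45 (SE, edgeR adjusted p = 0.674 and 0.628). CREB1, the factor that binds the cyclic AMP response element, was even across the libraries at 16.3 to 36.6 TPM. Of the relatives of MITF, TFE3 stood at 2.74 to 21.2 TPM, TFEB at 0.375 to 1.92 TPM, and TFEC was at 0 in all libraries other than nociceptor library 2, with 0.0348 TPM.

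The ligands of the 2 receptors were unevenly present. KITLG, which encodes stem cell factor, stood at 2.33, 5.35 and 0.393 TPM in the proprioceptor libraries, at 26.8, 15.3 and 10.9 TPM in the mechanoreceptor libraries, and at 7.13, 2.32, 4.50 and 2.44 TPM in the nociceptor libraries. All 3 mechanoreceptor libraries were above all others. Of 16130 genes, 8.05% were higher without overlap in the mechanoreceptor against the nociceptor protocol. In the proprioceptor against the mechanoreceptor protocol 5.02% were lower without overlap. The log2 fold change of KITLG was 1.85 ± 0.73 in the mechanoreceptor against the nociceptor protocol and -2.30 ± 0.82 in the proprioceptor against the mechanoreceptor protocol (SE, edgeR adjusted p = 0.598 and 1). EDN3, the endothelin that melanoblasts respond to, was at 0.0649 to 0.429 TPM, EDN1 at 0.0418 to 1.52 TPM, and ECE1, the enzyme that activates endothelins, at 2.15 to 51.6 TPM. Of 14 ligands and partners 9 were tested, with 0 called and medians of -0.96 and -0.71 in the proprioceptor and mechanoreceptor protocols against the nociceptor protocol.

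Among 9 genes of melanosome transport and ion balance, OCA2, SLC24A5, SLC45A2 and TRPM1, which are largely restricted to pigmented cells, were under 1 TPM in every library, while MFSD12, a cysteine transporter also found in lysosomes, stood at 28.8 to 257 TPM and ATP7A, the copper pump that supplies tyrosinase, at 3.01 to 16.6 TPM. GPR143, a receptor of the melanosome membrane in pigment cells, stood at 0.162 to 1.77 TPM and was above 1 TPM in 3 libraries, namely proprioceptor 2, mechanoreceptor 3 and nociceptor 2. MC1R, the melanocortin receptor, stood at 0.4995 to 5.32 TPM and was above 1 TPM in 9 libraries. None of 20 trafficking genes, most of them shared with lysosome-related organelles of other cells, had a mean under 1 TPM. CD63, a tetraspanin of endosomes, stood at 506 to 3388 TPM, and RAB32 at 25.1 to 285 TPM. RAB32 had log2 fold changes of -1.28 ± 0.66 in the proprioceptor and -1.83 ± 0.68 in the mechanoreceptor protocol against the nociceptor protocol (SE, edgeR adjusted p = 0.665 and 0.598). DTNBP1, a subunit of the BLOC-1 sorting complex, had 1.27 ± 0.38 and 0.59 ± 0.38 (SE, edgeR adjusted p = 0.665 and 0.643).

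**Figure D5:**
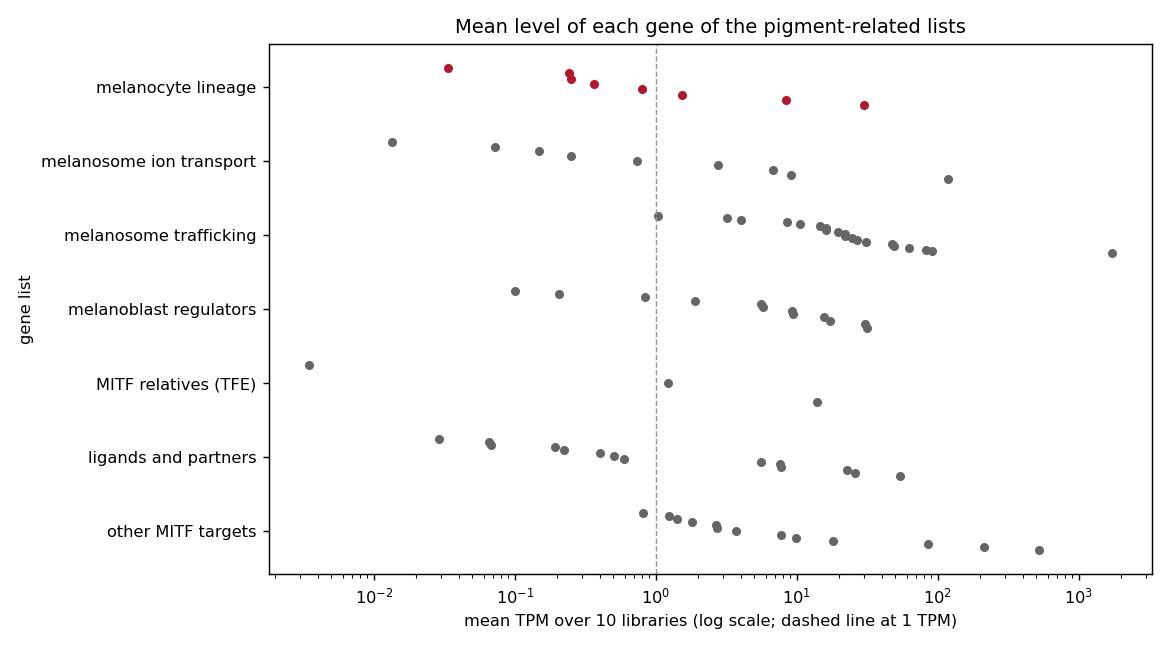
Mean TPM over the 10 libraries (x axis, log scale; dashed line at 1 TPM) of each gene in the pigment-related lists (y axis); each point is 1 gene and the lineage genes are in red. Of the 8 lineage genes 5 have a mean under 1 TPM, against 5 of 9 genes of melanosome ion transport and 0 of 20 trafficking genes.

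In the trafficking list 0 of 20 genes passed the adjusted test, with medians of -0.39 and -0.30 in the proprioceptor and mechanoreceptor protocols against the nociceptor protocol. The 13 other MITF targets, all tested, gave 0 calls and medians of -0.47 and -0.20. CDK2, a cell cycle kinase whose melanocyte expression depends on MITF, stood at 0.840, 12.2 and 1.56 TPM in the proprioceptor libraries, at 1.06, 0.409 and 6.89 TPM in the mechanoreceptor libraries, and at 19.6, 21.5, 30.5 and 4.39 TPM in the nociceptor libraries. CAPN3, a calpain protease, stood at 13.6, 143 and 2.24 TPM in the proprioceptor libraries, at 3.40, 1.47 and 126 TPM in the mechanoreceptor libraries, and at 90.8, 67.7, 344 and 59.6 TPM in the nociceptor libraries. Both genes were higher in proprioceptor library 2 and mechanoreceptor library 3 than in the other libraries of those protocols, as EDNRB was. SDCBP and QDPR stood at 322 to 1053 TPM and 165 to 243 TPM, without that split. GMPR was highest in proprioceptor library 1 and mechanoreceptor library 2 of their protocols, at 19.5 and 14.9 TPM. Against the nociceptor protocol its log2 fold changes were 2.29 ± 0.84 in the proprioceptor and 1.80 ± 0.84 in the mechanoreceptor protocol (SE, edgeR adjusted p = 0.665 and 0.598). PPARGC1A had 1.63 ± 0.65 and 0.61 ± 0.65 (SE, edgeR adjusted p = 0.665 and 0.779).

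Several lineage genes are also used by the pigment epithelium of the retina, which expresses MITF, PMEL, TYR and DCT. Of its 12 markers, 8 had a mean under 1 TPM and 4 were under 1 TPM in every library, among them OTX2, and none was at 0 in all libraries. Their summed level was 2.59 to 22.7 TPM in the proprioceptor, 3.86 to 20.02 TPM in the mechanoreceptor and 7.02 to 22.0 TPM in the nociceptor libraries. RPE65, the visual cycle isomerase, stood at 0, 1.24 and 0.162 TPM in the proprioceptor libraries, at 0, 0 and 0.508 TPM in the mechanoreceptor libraries, and at 0.920, 3.24, 1.99 and 0.0898 TPM in the nociceptor libraries. The summed level of the 14 glial markers was 292 to 3532 TPM in the proprioceptor, 671 to 2984 TPM in the mechanoreceptor and 1366 to 7153 TPM in the nociceptor libraries. The 11 fibroblast and mesenchyme markers summed to 15.9 to 1300.2 TPM, 14.8 to 1114 TPM and 148 to 3583 TPM, and the 10 sensory neuron markers to 6980 to 12294 TPM, 7141 to 11125 TPM and 4076 to 10381 TPM, in the same order of protocols. Against the nociceptor protocol, the median log2 fold changes in the proprioceptor and mechanoreceptor protocols were -2.29 and -1.81 for the mesenchyme list, 0.83 and 0.34 for the neuronal list, -0.72 and -0.77 for the retinal list, and 1.02 and 0.38 for the 2 tested mast cell markers. For melanosome transport and ion balance they were -0.35 and -0.29, and for the 2 tested relatives of MITF -0.39 and -0.20. In none of these lists did edgeR call a gene. DESeq2 called FABP7, 1 of 14 tested glial genes (log2 fold change -3.29, DESeq2 adjusted p = 0.00991), in the mechanoreceptor protocol. There it also called LRAT, 1 of 8 retinal genes (-3.63, DESeq2 adjusted p = 0.0475), and PRRX1, 1 of 10 mesenchyme genes (-5.87, DESeq2 adjusted p = 1.26e-06). In the proprioceptor protocol it called PRRX1 (-3.19, DESeq2 adjusted p = 0.037). Of all genes it called 0.859% and 0.193% in these comparisons. LRAT stood at 0.00860 to 1.22 TPM and PRRX1 at 0 to 2.38 TPM. All 10 neuronal markers were above 1 TPM in every library, and the part of the other cell types in the lineage genes was not tested.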

How the data were processed

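The authors' deposited tables give, per gene and per transcript, kallisto estimated counts and TPM for 10 libraries; kallisto 0.50.1 and the build GRCh38.p14 come from the submitters' processing notes. How transcripts were summed to genes is not given in the sources used here. An entry without a name, 0.733% to 1.66% of counts, was left out. Estimated counts were rounded and tested in edgeR 4.0.16 (R 4.3.3; filterByExpr, TMM, quasi-likelihood F test, 1 model with a mean per protocol over all 10 libraries, Benjamini-Hochberg over 16130 genes); DESeq2 1.42.0 and limma 3.58.1 on log2(TPM + 1) and log2(TPM + 0.1) were alternatives. The test was checked on simulated counts, with its pass mark set at a smaller spread between libraries than that of these data. The common biological coefficient of variation here was 0.550, and recovery at that spread is not given. Transcript names and types are from GENCODE 29, which matched 78.5% of 207133 transcripts; promoters are from RefSeq, which had windows for 7 of 8 genes. The members and the lists were chosen with earlier results of these data known. Named genes were, per list, the 3 with the highest mean TPM, the 3 with the smallest p across protocols and any called; others are named as examples of their list, after their values were seen. No 2 libraries of a protocol agreed within sampling noise. No pairing by the replicate numbers in the titles was seen, and whether same-numbered libraries share a batch was not tested. Some genes are not reported here.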

Additional observations from a re-analysis of the deposited data

Results flagged for a closer look

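Among 62 named genes, 7 had 1 nociceptor library that stood apart from the other 3 by a gap beyond Dixon's 95% critical value, where chance flags about 1 in 20 groups. SDCBP, at 1053 TPM, and RDH5, at 10.1 TPM, were high in nociceptor library 1. GATA2, at 0.850 TPM, and TFEC, at 0.0348 TPM, were high in nociceptor library 2, with 60 counts for GATA2 and 1 count for TFEC. CAPN3, at 344 TPM, and TFE3, at 21.2 TPM, were high in nociceptor library 3. NEFM, at 2651 TPM, was high in nociceptor library 4. None of the 8 melanocyte lineage genes was among them.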

How the results depend on the processing

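With edgeR on TMM or on median-ratio size factors, without the filter on low counts, on the 2 protocols compared only, and with limma on TPM, no lineage gene was called, and the smallest adjusted p of a lineage gene under any alternative was 0.188. DESeq2 called 130 genes in the mechanoreceptor against nociceptor comparison, 31 in the proprioceptor against nociceptor comparison and 79 across the protocols, where edgeR called 0; the cause was not tested. None of the fold changes whose direction turned had been called. KIT, mechanoreceptor against nociceptor, at -0.73 in edgeR, was 0.0807 on log2(TPM + 1) and 0.27 on log2(TPM + 0.1). MITF, proprioceptor against mechanoreceptor, was 0.0829 on log2(TPM + 0.1). EDNRB, proprioceptor against mechanoreceptor, was 0.34 on log2(TPM + 1), 0.97 on log2(TPM + 0.1) and 0.86 with the replicate number as a block. The replicate block gave 0 calls. Same-numbered libraries correlated between -0.633 and 0.49, and those of different number between -0.575 and 0.792, so no pairing was seen. Whether same-numbered libraries share a batch or a differentiation was not tested. Leaving out each library in turn gave -0.47 to 1.21 for PMEL (mechanoreceptor against nociceptor), -1.02 to 0.19 for DCT (proprioceptor against nociceptor), and, for the proprioceptor against the mechanoreceptor protocol, -0.83 to 1.32 for MITF, -2.50 to 0.52 for KIT and -3.25 to 3.89 for EDNRB. The M-start share of MITF, proprioceptor against nociceptor, ran from -7.02 to 16.2 percentage points. The fit across transcripts, chosen after seeing the data, gave no value for EDNRB-209, which had too few counts. TYR, TYRP1 and MLANA, at 11 to 55 counts in all, entered only the fit without the filter and were not called there.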
